A study of Mus musculus with 26 samples.

Results

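The vessel compartment of regenerating muscle was followed through 10 genes, 5 markers of the stable vessel wall (Pecam1, Cdh5, Kdr, Tek and Vwf) and 5 genes linked to vessel sprouting (Vegfa, Apln, Aplnr, Esm1 and Angpt2). They were taken by symbol from the table of regenerating tibialis anterior (TA) muscle, where each of the 10 symbols stood on 1 of 53465 gene rows. Values are FPKM, counts of sequenced fragments scaled by gene length and library size, as the authors deposited them. All 10 genes had at least 0.5 FPKM in at least 2 libraries and were among the 16753 genes tested.

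Endothelial cells line every vessel and hold together through junction proteins such as PECAM-1 and VE-cadherin, the products of Pecam1 and Cdh5. VEGF-A, made by many cells, muscle fibres among them, binds the endothelial receptor VEGFR2 (Kdr) and drives sprouting, while the receptor Tie2 (Tek) keeps vessels quiescent and is antagonised by angiopoietin-2 (Angpt2), which activated endothelium releases. At the tip of a sprout, cells raise apelin (Apln) and endocan (Esm1), and the apelin receptor (Aplnr) is carried by growing and venous endothelium.

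Injured muscle was sampled on days 0, 1, 3, 5 and 10, with 2 libraries per day (CTX-D0, CTX-D1, CTX-D3, CTX-D5 and CTX-D10, 10 libraries). Per the study's methods the animals were young male C57BL/6J mice whose TA was injected with cardiotoxin (CTX), a venom peptide that kills muscle fibres, with saline as the control. The labels give CTX-D0 as day 0 and do not say whether it was uninjected or given saline, nor whether replicate libraries came from separate animals, so p-values measure the spread between these libraries only. A second table holds 8 libraries of C2C12 cells, a mouse myoblast line, as myoblasts (D0) and on day 3 of differentiation (D3). The cells were a control (CTRL) or carried a lentiviral dCas9-KRAB construct against the Mettl3 promoter (Cas9M3), with 2 libraries per group. Per the methods the infected cells were selected with puromycin. The methods do not say which construct or selection the CTRL cells had. The Cas9M3 cells were a stable line whose clonality is not given, and the design text calls them knockout while the methods describe repression of the promoter. The libraries of cells with added Mettl3 or GFP were not analysed here.

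On the deposited scale the members that passed a test in muscle were Vegfa and Kdr, a ligand and its receptor, both at their lowest on day 3. The 250 bases before their start sites are shown so that the promoters of this pair can be compared. RefSeq (GRCm38.p6) gave 6 such windows for 5 of the 10 members, 2 of them for Vegfa and 1 each for Tek, Kdr, Esm1 and Apln; Pecam1, Cdh5, Vwf, Aplnr and Angpt2 were not matched. Capitals mark GC boxes, the letters GGGCGG or CCGCCC, sought on both strands. The Kdr window is chr5:75978456-75978705 and the Vegfa window, the one farther upstream, chr17:46032378-46032627, both read 5′ to 3′ on the minus strand.
Kdr: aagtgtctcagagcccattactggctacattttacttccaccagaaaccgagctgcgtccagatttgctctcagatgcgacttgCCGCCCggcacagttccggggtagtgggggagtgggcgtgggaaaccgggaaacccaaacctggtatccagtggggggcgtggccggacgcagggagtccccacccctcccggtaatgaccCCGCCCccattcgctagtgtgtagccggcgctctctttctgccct
Vegfa: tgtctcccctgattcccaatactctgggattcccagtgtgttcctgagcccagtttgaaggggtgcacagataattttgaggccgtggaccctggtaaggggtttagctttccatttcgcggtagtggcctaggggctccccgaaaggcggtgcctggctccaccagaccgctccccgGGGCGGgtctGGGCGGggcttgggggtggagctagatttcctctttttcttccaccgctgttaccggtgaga
Each printed window held 2 GC boxes, a motif present in 32.7% of the 32851 promoter windows of this length. Neither printed window held the hypoxia response core ACGTG or its reverse CACGT (16.6% of windows) or the ETS core AGGAAG or its reverse CTTCCT (29.5%), so no other motif overlapped the boxes. The second Vegfa window, chr17:46025164-46025413, not printed, lies inside the gene (chr17:46016993-46032369). It held 1 GC box and 1 hypoxia core, so what the pair share depends on which Vegfa start is taken. The Tek and Esm1 windows held none of the 3 motifs, and the Apln window held 1 GC box and 1 ETS core. A match describes letters only.

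Depth was implied by the step that 1 read makes in the low values and lay between 14170000 and 18820000 reads on genes in the muscle libraries and between 14230000 and 29570000 in those of C2C12. The markers followed the injury, with the sum of 8 muscle fibre genes at 58845 to 66091 FPKM on day 0 and 15917 to 19844 FPKM on day 3, and that of 7 macrophage genes at 48.5 to 99.1 and 1577 to 1615 FPKM. Xist, the RNA of the inactive X chromosome, stood at 5.77 to 10.0 FPKM in both CTX-D0 libraries, both CTX-D10 libraries and CTX-D3 replicate 2 and at most at 0.152 FPKM in the other 5, although the methods name male mice. All libraries of days 1 and 5 were among these 5, so day and Xist cannot be told apart where those days are compared with day 0. Endothelial RNA also differed between libraries of the same day, since replicate 2 had the higher value for 17, 13, 2, 20 and 20 of 20 other endothelial genes on days 0, 1, 3, 5 and 10.

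**Figure D1:**
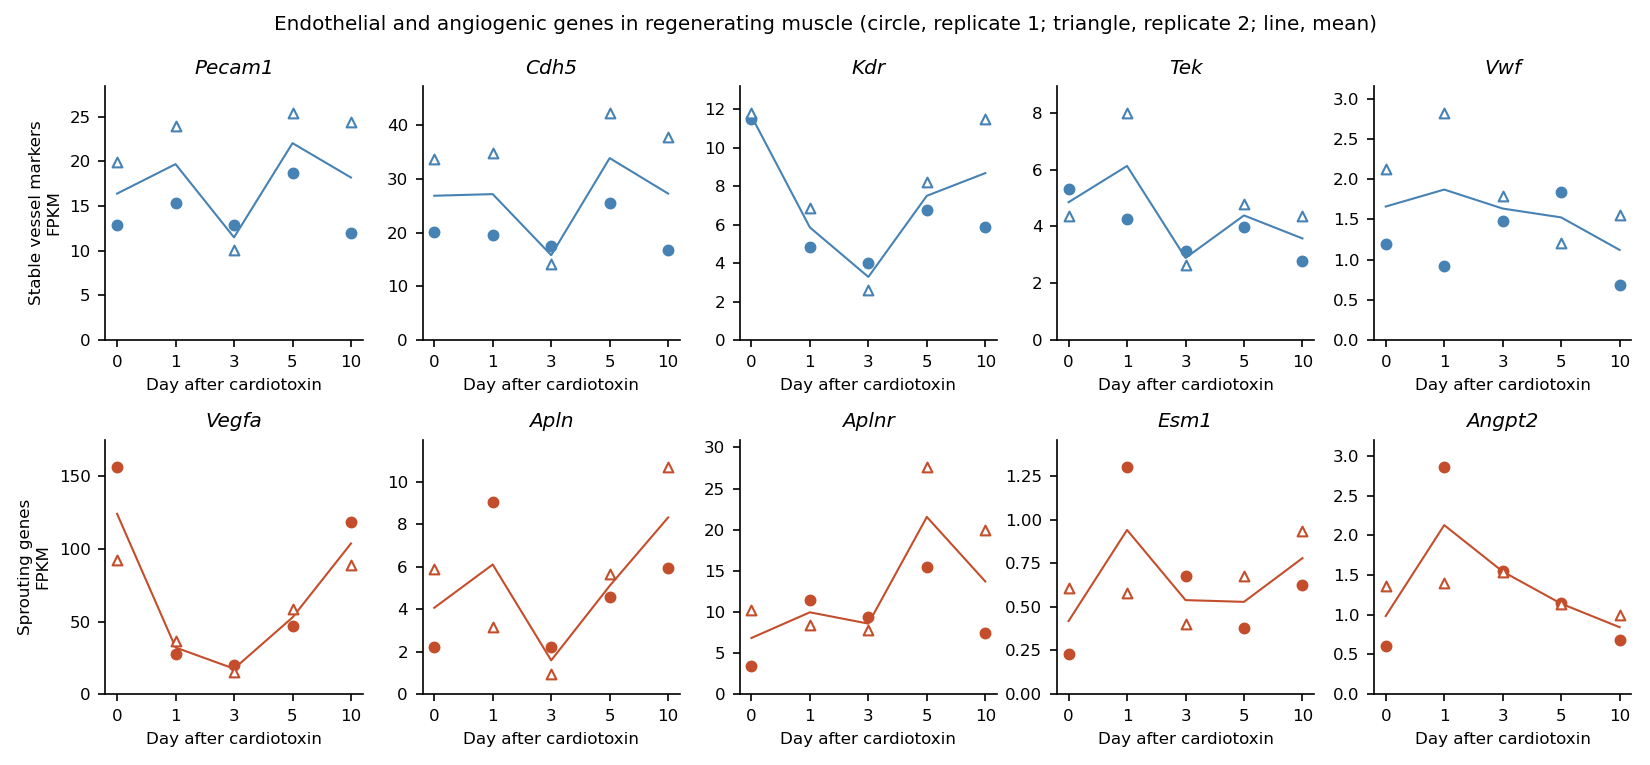
FPKM of each member (y axis, from 0) on days 0, 1, 3, 5 and 10 (x axis), with replicate 1 as circles, replicate 2 as triangles and the mean as a line; stable markers are in the upper row and sprouting genes in the lower row. Cdh5, Kdr and Vegfa are lowest on day 3, Aplnr is highest on day 5, and the replicates of Cdh5 on day 10 stand apart, at 16.7 and 37.8 FPKM.

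The junction genes had their lowest mean on day 3 and their highest on day 5, and neither difference passed the test with all days in the fit. Pecam1 (chr11:106654217-106750628, GRCm38), the platelet endothelial cell adhesion molecule, read 12.9 and 19.9 FPKM on day 0, 15.4 and 24 on day 1, 12.9 and 10.1 on day 3, 18.7 and 25.4 on day 5, then 12 and 24.4 by day 10, with replicate 1 first here and in what follows. Cdh5 (chr8:104101625-104144511), VE-cadherin, read 20.1 and 33.6, then 19.5 and 34.8, 17.5 and 14.1, 25.5 and 42.2, and 16.7 and 37.8 FPKM on the same days. Both day 3 libraries of Cdh5 lay below both day 0 libraries, and for Pecam1 the upper day 3 library lay just under the lower day 0 library. On the log2(FPKM + 0.1) scale the difference between day 3 and day 0 was -0.72 ± 0.47 (SE, n = 2 per group) for Cdh5 and -0.49 ± 0.39 for Pecam1, with limma adjusted p-values of 0.239 and 0.329. Between day 3 and day 5 the differences were 1.06 ± 0.47 and 0.93 ± 0.39, with adjusted p-values of 0.183 and 0.161, and Pecam1 passed at 0.0437 with only the compared days in the fit. There were 0.595 to 0.790 Pecam1 per Cdh5 over the 10 libraries, the narrowest range of the ratios computed between members.

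Vwf (chr6:125546774-125686679), the clotting factor that endothelium stores in Weibel-Palade bodies, was the least abundant stable marker. It read 1.19 and 2.13 FPKM on day 0, 0.922 and 2.82 on day 1, 1.48 and 1.79 on day 3, 1.84 and 1.21 on day 5, then 0.681 and 1.56 by day 10. Its libraries overlapped between day 0 and each later day. The day 3 difference was 0.03, with a 95% interval from -1.28 to 1.33, so a change of either sign and of more than 1 log2 unit was within the error.

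The receptors differed from each other. Tek (chr4:94739289-94874976) read 5.33 and 4.37 FPKM on day 0, 4.27 and 7.98 on day 1, 3.14 and 2.64 on day 3, 3.97 and 4.8 on day 5, then 2.77 and 4.38 by day 10. Kdr (chr5:75932827-75978458) read 11.5 and 11.8 FPKM on day 0, 4.86 and 6.86 on day 1, 3.99 and 2.58 on day 3, 6.79 and 8.22 on day 5, then 5.87 and 11.5 by day 10. Both receptors were below both day 0 libraries on day 3, and Kdr was also below them on days 1 and 5. Kdr fell by 1.82 on the log2 scale on day 3 (SE 0.34, limma adjusted p = 0.00392), to 28.3% of its day 0 mean. That call held in every alternative and without each library in turn, with differences from -2.13 to -1.52. On day 1 its difference was -0.996 ± 0.34 with an adjusted p of 0.117, and day 5 against day 3 gave 1.19 ± 0.34 with an adjusted p of 0.0607, which passed at 0.0299 without CTX-D10 replicate 1, at 0.03 without CTX-D10 replicate 2, at 0.0368 with quantile normalization and at 0.0354 with only the compared days in the fit. With those days alone its day 5 difference from day 0, -0.63, also passed (0.0449). For Tek the day 3 difference was -0.73 ± 0.32 (adjusted p = 0.1), which passed at 0.0442 and 0.0445 without CTX-D1 replicate 1 or 2 and at 0.0285 with only the compared days in the fit. Its day 3 against day 1 gave -0.99 ± 0.32 (adjusted p = 0.0516), which passed at 0.0219 without CTX-D1 replicate 1, at 0.0447 without CTX-D10 replicate 1 and at 0.0448 without CTX-D10 replicate 2, and at 0.0345 to 0.0498 with a pseudocount of 1, quantile normalization or the replicate block.

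Other genes of the vessel wall were lower on day 3 as well. Of 20 other endothelial genes, all expressed in muscle, 10 fell and 0 rose on day 3, when 24.3% of all tested genes fell, with a median difference of -0.79 over the list and 0.01 over all tested genes. Nos3, the endothelial nitric oxide synthase, fell by 1.44 (adjusted p = 0.00223), Egfl7, a secreted endothelial factor, by 1.26 (0.0190), and Esam, a junction adhesion molecule, by 0.87 (0.0255). The 3 most abundant genes of the list were Egfl7, Esam and Cldn5, the tight junction gene, and Cldn5 showed a difference of -0.02 with values of 9.82 and 13.9 FPKM on day 0 and 12.4 and 10.7 on day 3. Against day 1, 5 of the 20 were lower on day 3, where 16.6% of all genes were. On day 5 the median difference from day 0 was -0.10. Clec14a was the 1 gene that rose and 0 fell, where 12.9% of all tested genes rose and 12.5% fell. On days 1 and 10 the medians were 0.05 and -0.10. There 0 of 20 were called either way, where 6.00% and 0.00597% of all genes were. The count of 10 was 2 without CTX-D0 replicate 2 or without CTX-D3 replicate 2, 6 without CTX-D0 replicate 1 or without CTX-D3 replicate 1, and 5 with a term for Xist. In RNA from whole muscle, fewer endothelial cells and less of these RNAs per cell cannot be told apart. The fall in fibre RNA and the rise in macrophage RNA given above moved with these values, and their part in them was not tested.

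**Figure D2:**
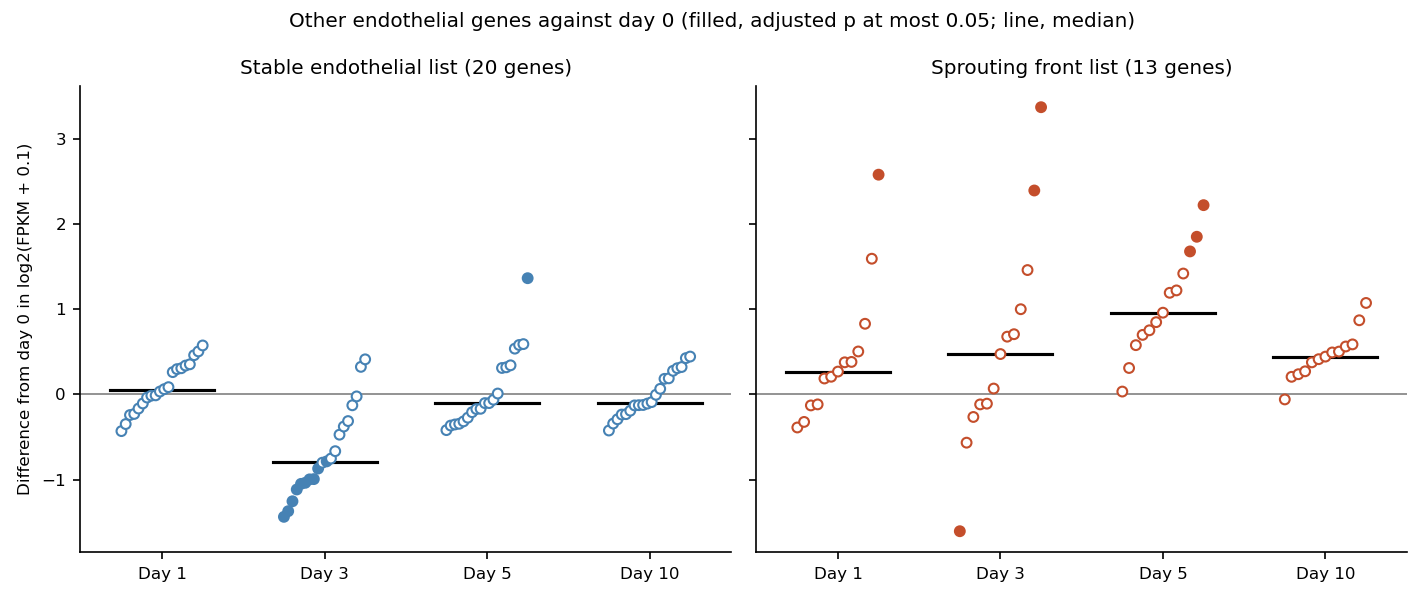
Difference from day 0 in log2(FPKM + 0.1) (y axis) on each later day (x axis) for 20 other stable endothelial genes and 13 genes of the sprouting front; each point is a gene, filled where the adjusted p was at most 0.05, and the line is the median. On day 3 the stable list has a median of -0.79 with 10 filled points, all below 0, and the sprouting front list one of 0.48.

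Vegfa had the largest difference from day 0 of the 10 genes on days 1 and 3. Vegfa (chr17:46016993-46032369) read 156.3 and 92.1 FPKM on day 0, 27.8 and 36.4 on day 1, 19.9 and 15.1 on day 3, 46.7 and 58.9 on day 5, then 118.7 and 88.8 by day 10. The day 1, day 3 and day 5 libraries all lay below both day 0 libraries, while those of day 10 overlapped them. On the log2 scale, and with an SE of 0.29 throughout, Vegfa fell by 1.91 on day 1 (adjusted p = 0.0231), by 2.79 by day 3 (0.000468) and by 1.19 by day 5 (0.0270), with means of 25.9%, 14.1% and 42.5% of day 0. Between day 3 and day 5 it rose by 1.59 (SE 0.29, adjusted p = 0.0166), and on day 10 the difference from day 0 was -0.23 ± 0.29. The day 3 call held in every alternative and without each library, with differences from -3.17 to -2.41, and it alone passed the study's limit of 2 log2 units. The other calls were lost without 1 library or another, and in some alternatives. On day 1 the adjusted p was 0.117 without CTX-D0 replicate 1, 0.117 without CTX-D1 replicate 1, 0.119 with only the compared days in the fit and 0.396 with a term for Xist. With the same 2 changes the day 5 adjusted p was 0.052 and 0.207, and it was 0.0519 without a filter on low values and 0.0597 with quantile normalization. Without 1 library it was 0.157 without CTX-D0 replicate 1, 0.120 without CTX-D5 replicate 1 and 0.110 without CTX-D5 replicate 2. From day 3 to day 5 it was 0.0531 and 0.118 without CTX-D3 replicate 1 or 2, 0.0700 and 0.109 without CTX-D5 replicate 1 or 2, and 0.121 with the term for Xist. Day 3 against day 1 gave -0.88 ± 0.29 (adjusted p = 0.0571), which passed at 0.0351 and 0.0350 without CTX-D0 replicate 1 or 2.

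Other ligands and receptors of the VEGF and angiopoietin families did not move as a block. Of 11 such genes 9 were tested, and on day 3 1 rose and 3 fell, where 24.5% of all tested genes rose and 24.3% fell, with medians of -0.46 for the 9 and 0.01 for all genes. Vegfb, the most abundant of them and a ligand of VEGFR1, read 85.1 and 67.5 FPKM on day 0 and 16.4 and 12.6 on day 3, and it fell by 2.39 (adjusted p = 0.000284). Flt1, which encodes VEGFR1, fell by 1.68 (0.00751), from 5.31 and 4.71 to 1.72 and 1.29 FPKM. Angpt1, the activating ligand of Tie2, fell by 1.48 (0.00461). Pgf, placental growth factor, rose on day 1 by 2.40 (0.0333) and on day 3 by 1.48 (0.0311). Nrp1, a VEGF co-receptor, was at 4.56 and 4.86 FPKM on day 0 and at 4.42 and 3.95 on day 3, a difference of -0.17 ± 0.31. On day 1 Pgf was the 1 gene of the 9 called, where 6.00% of all tested genes were. On day 5 only Vegfb was called, as lower, where 12.5% of all genes were lower. On day 10 there were 0, where 0.00597% of all genes were called.

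Genes of the hypoxia response, a pathway that includes Vegfa, gave some calls on days 3 and 5, all of them lower. Of 13 such genes, 6 fell and 0 rose on day 3, when 24.3% of all tested genes fell, and 7 fell and 0 rose on day 5, when 12.5% fell. The medians of the list were -0.86 and -1.30, with 5 and 2 of the 13 differences positive. Taken relative to the endothelial genes, as described further on, 4 were lower and 2 (Kdm3a and Ddit4) were higher on day 3. Of all tested genes 4.46% were lower and 32.6% higher on that scale. On day 1, when 6.00% of all tested genes were called, Bnip3 fell and Slc2a1 rose. Egln1, an oxygen sensor, read 119.5 and 85.2 FPKM on day 0 and 18.2 and 13.1 on day 3 (difference -2.70 ± 0.28), and Bnip3, a mitophagy receptor, read 74.7 and 67.2 and then 20.8 and 16.3 FPKM (-1.94 ± 0.21). On day 5 the adjusted p-values of Egln1, Bnip3 and Egln3 were 0.0108, 0.0113 and 0.0292. The 8 muscle fibre genes, all of which fell on day 3, moved with them on that day, and on day 5 limma called 0 of the 8, with 2 (Ckm and Tnnt3) at an unadjusted p under 0.05. Their part in the day 3 change of Vegfa was not tested.

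Angpt2 was low in every library. Angpt2 (chr8:18690263-18741562) read 0.609 and 1.36 FPKM on day 0, 2.86 and 1.40 on day 1, 1.55 and 1.54 on day 3, 1.15 and 1.13 on day 5, then 0.686 and 1.00 by day 10, from 28 to 151 reads per library. Both libraries of day 1 and of day 3 were above both of day 0. The day 1 difference was 1.05 ± 0.42, with an adjusted p of 0.157, and that of day 3 was 0.69 ± 0.42, with one of 0.204. Per Tek, the receptor it competes for, Angpt2 stood at 0.114 and 0.311 on day 0 and at 0.494 and 0.583 on day 3, and at 0.289 and 0.235 on day 5. The day 1 ratios, 0.670 and 0.176, lay on either side of those of day 3.

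The apelin ligand and its receptor had different orders of days. Apln (chrX:48025146-48034853), the ligand, read 2.24 and 5.90 FPKM on day 0, 9.05 and 3.17 on day 1, 2.24 and 0.942 on day 3, 4.56 and 5.65 on day 5, then 5.96 and 10.7 by day 10. Aplnr (chr2:85136225-85139923), the receptor, read 3.45 and 10.2 FPKM on day 0, 11.5 and 8.40 on day 1, 9.35 and 7.79 on day 3, 15.5 and 27.6 on day 5, then 7.40 and 20 by day 10. Aplnr on day 5 was above both day 0 libraries, and Apln on day 3 was at or below them. The day 5 difference of Aplnr was 1.78 ± 0.60 (adjusted p = 0.0641), and it became a call at 0.0315 without CTX-D0 replicate 2, at 0.0450 and 0.0449 without CTX-D10 replicate 1 or 2, and at 0.0452 with the replicate number as a block. For Apln, day 3 differed from day 0 by -1.26 ± 0.65 (adjusted p = 0.143) and from day 1 by -1.81 ± 0.65 (adjusted p = 0.0679), the latter at 0.0405 without CTX-D1 replicate 2 and 0.0451 with quantile normalization. The Apln to Aplnr ratio was 0.650 and 0.579 for day 0, 0.787 and 0.377 for day 1, 0.239 and 0.121 for day 3, 0.295 and 0.205 for day 5, and 0.806 and 0.535 for day 10. The ratios of days 3 and 5 were all below those of days 0, 1 and 10.

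**Figure D3:**
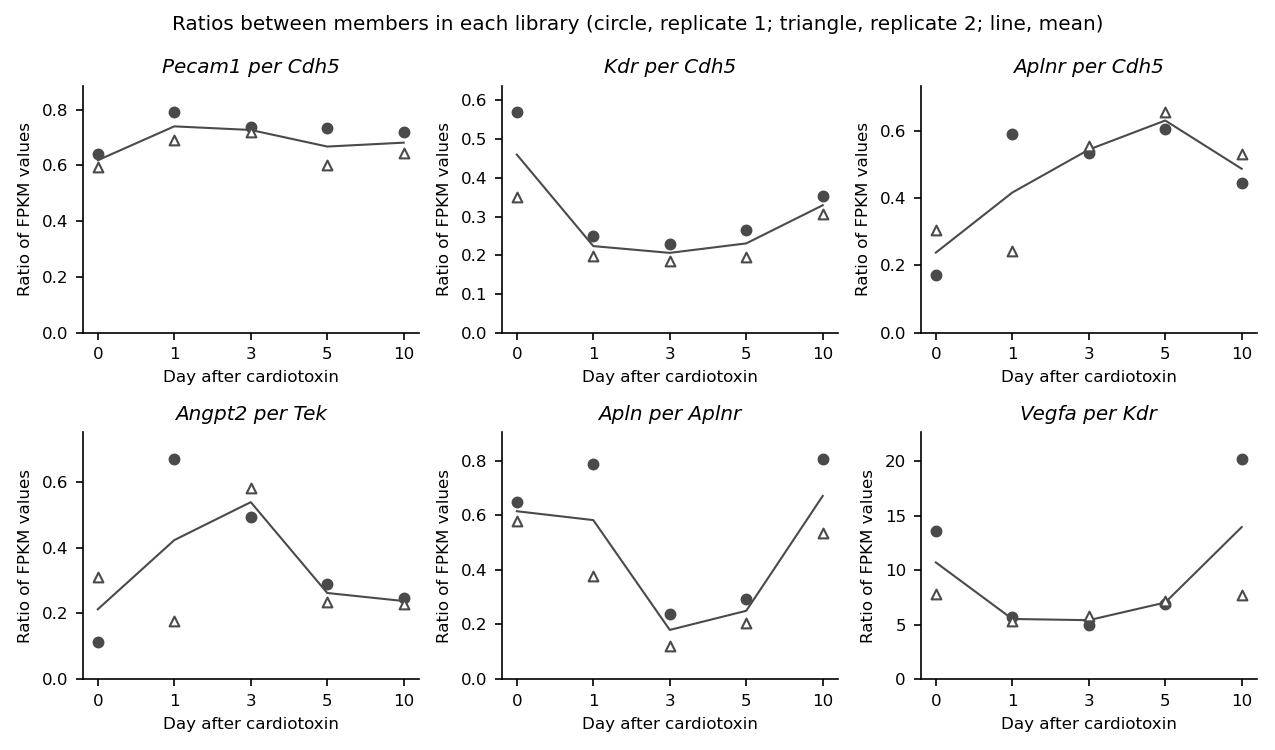
Ratio of 2 members' FPKM values within each library (y axis, from 0) by day (x axis), with replicate 1 as circles, replicate 2 as triangles and the mean as a line. Pecam1 per Cdh5 stays between 0.595 and 0.790, Kdr per Cdh5 is at most 0.266 on days 1, 3 and 5 against 0.569 and 0.351 on day 0, and Apln per Aplnr is at most 0.295 on days 3 and 5.

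Esm1 (chr13:113209659-113218098), which encodes endocan, was at the edge of detection, with 6 to 39 reads per library and 206 reads over all 10. It read 0.230 and 0.607 FPKM on day 0, 1.30 and 0.581 on day 1, 0.676 and 0.401 on day 3, 0.380 and 0.677 on day 5, then 0.623 and 0.935 by day 10. Only the day 10 libraries lay wholly above those of day 0, and 0.623 FPKM on day 10 was close to 0.607 on day 0. Its differences from day 0 ran from 0.34 on day 5 to 1.02 on day 1, with adjusted p-values of at least 0.259, and the 95% interval on day 1 reached from -0.20 to 2.23.

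Further genes of the sprouting front, 13 in all, had positive median differences from day 0 on each later day. These medians were 0.27, 0.48, 0.96 and 0.45 for days 1, 3, 5 and 10. On day 5 all 13 differences were positive, and 3 passed the test where 12.9% of all tested genes rose, Cxcr4, a chemokine receptor also carried by leukocytes (1.68, adjusted p = 0.0377), Plvap, which forms the diaphragms of fenestrae (1.86, 0.0232), and Nid2, a basement membrane protein (2.23, 0.0347). On day 3 Cxcr4 and Plaur, the urokinase receptor, rose and Dll4, the Notch ligand of tip cells, fell by 1.61 (limma adjusted p = 0.0213). Of all tested genes 24.5% rose and 24.3% fell on that day. Plaur was the 1 gene called on day 1, when 3.53% of all genes rose, and 0 were called on day 10. The most abundant of the list, the collagen genes Col4a1 and Col4a2, read 24.5 and 64.0 and 21.5 and 46.4 FPKM on day 0 and 77.2 and 111.2 and 53.1 and 71.4 FPKM on day 5, with adjusted p-values of 0.153 and 0.183. Pdgfb, a ligand that recruits pericytes, stood at 13.9 and 19.7 FPKM on day 0 and 19.6 and 21.6 on day 5. The day 5 count of 3 was 0 without CTX-D0 replicate 1, without CTX-D5 replicate 1 or without CTX-D5 replicate 2, 1 without CTX-D3 replicate 1 or 2, and 5 without CTX-D0 replicate 2, and it was 7 with the replicate block, 1 without a filter and 0 with a term for Xist. Fibroblast and macrophage genes were also higher on day 5, 4 of 6 and 7 of 7 by the test, and their part in these values was not tested. In C2C12 myoblasts, Dll4, Pdgfb, Plvap and Mcam read at most 0.63 FPKM. Every other gene of the list reached at least 15.3 FPKM in some C2C12 library, with Cxcr4 at up to 15.6 and Nid2 at up to 81.1. The part of myoblasts in the muscle values was not tested either.

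Over the 10 members, few changes passed the test. Against day 0, 1 of 10 members was called on day 1 (Vegfa) where 6.00% of all tested genes were, 2 on day 3 (Kdr and Vegfa) where 48.8% were, 1 on day 5 (Vegfa) where 25.5% were, and 0 on day 10 where 0.00597% were. Between neighbouring days, 0 members were called for day 3 against day 1 (31.1% of all genes), 1 for day 5 against day 3 (Vegfa, 12.7%) and 0 for day 10 against day 5 (0.281%). Under limma's unadjusted p of 0.05 there were 3, 2, 2 and 0 members for days 1, 3, 5 and 10 against day 0, where 4493, 9341, 6736 and 1697 of the 16753 genes were. Between neighbouring days there were 4 for day 3 against day 1, 4 for day 5 against day 3 and 1 for day 10 against day 5, where 7306, 4920 and 4143 genes were. The comparisons with day 0 share the 2 day 0 libraries. By non-overlap of the libraries, 3 of 10 members were apart from day 0 on day 1 (52.4% of all genes), 7 of 10 on day 3 (77.9% of all), 3 of 10 on day 5 (70.8%) and 2 of 10 on day 10 (39.6%). The members' shares are near or under these backgrounds and are no result about the members as a group. An exact permutation test of 2 against 2 libraries cannot give a two-sided p below 0.333, so single genes were read from the limma fit across all genes.

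To set sprouting genes against vessel content, each library's mean log2 value of the 20 other endothelial genes was taken off every gene. This mean was 2.33 and 2.78 for day 0, 2.52 and 2.75 for day 1, 2.04 and 1.69 for day 3, 2.44 and 2.79 for day 5, and 2.21 and 2.89 for day 10. On this scale the median of all genes moved by 0.69 on day 3 and by at most 0.09 in either direction on the other days, so day 3 values are best read against 0.69. Of the genes called on this scale, 88.8%, 87.9% and 77.9% were higher on days 1, 3 and 5, against 58.8%, 50.2% and 50.8% on the deposited scale. On day 3, 4 members were called where 37.0% of all genes were, 2 higher and 2 lower where 32.6% and 4.46% were. Angpt2 was higher by 1.38 ± 0.44 (adjusted p = 0.0234) and Aplnr by 1.20 ± 0.44 (0.0455), while Vegfa was lower by 2.10 (SE 0.47, 0.0028) and Kdr by 1.14 (SE 0.35, 0.0210). Pecam1, Cdh5 and Tek differed from the other endothelial genes by 0.20, -0.04 and -0.04, with intervals from -0.58 to 0.97, -0.87 to 0.79 and -0.84 to 0.76. Vwf differed by 0.71, with an interval from -0.29 to 1.72. Only Vegfa held without each library and in each alternative. With the term for Xist the adjusted p-values of Kdr, Aplnr and Angpt2 were 0.0569, 0.122 and 0.0529, and without a filter those of Aplnr and Angpt2 were 0.0569 and 0.0518. A pseudocount of 0.01 gave 0.0503 for Aplnr. The adjusted p of Kdr was 0.144 without CTX-D0 replicate 1 and 0.0607 and 0.172 without CTX-D3 replicate 1 or 2, and that of Angpt2 was 0.135, 0.0524 and 0.163 in the same order. That of Aplnr was 0.346 without CTX-D0 replicate 1, 0.124 and 0.196 without CTX-D3 replicate 1 or 2, and 0.0525 and 0.0522 without CTX-D5 replicate 1 or 2.

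On the other days the same scale gave fewer calls. On day 1, 1 member was called, Vegfa, lower by 2.00 (SE 0.47, adjusted p = 0.0364), where 2.19% of all genes were, and it was lost without CTX-D0 replicate 1 (0.358), CTX-D1 replicate 1 (0.227), CTX-D1 replicate 2 (0.0812), CTX-D3 replicate 1 (0.0624) and CTX-D3 replicate 2 (0.0614), with a pseudocount of 0.01 (0.0523), without a filter (0.0687) and with the term for Xist (0.8). On day 5 the 1 member called was Aplnr, higher by 1.72 ± 0.44 (adjusted p = 0.0243), where 9.97% of all genes were, and its adjusted p was 0.286 without CTX-D0 replicate 1 0.0533 and 0.183 without CTX-D5 replicate 1 or 2, and 0.379 with the term for Xist. Vegfa was at -1.25 ± 0.47 (adjusted p = 0.109) and passed at 0.0376 without CTX-D0 replicate 2 and at 0.0461 and 0.0470 without CTX-D10 replicate 1 or 2. There were 0.171 and 0.304 Aplnr per Cdh5 on day 0 and 0.606 and 0.654 on day 5. On day 10, 0 members were called by limma where 0.0836% of all genes were, with 2 at an unadjusted p under 0.05, and the differences of Apln and Aplnr were 1.11 ± 0.51 and 1.02 ± 0.44. In the sprouting front list 7 of 13 genes were higher on day 3 on this scale, where 32.6% of all genes were, with a median of 1.16 against 0.69 over all genes, and the count was 3 without CTX-D3 replicate 2 and 4 without CTX-D0 replicate 1. In the leukocyte adhesion list, Selp, Ackr1, Vcam1 and Icam1, which endothelium uses to catch leukocytes, were all higher there, as 4 of 4 tested, again where 32.6% of all genes were. Their differences were 1.67, 1.36, 2.86 and 2.25, to be set against 0.69. On the deposited scale Selp and Ackr1 were not called on day 3 (limma adjusted p = 0.115 and 0.177). In C2C12 myoblasts Vcam1 read 4.36 to 22.8 FPKM, and Selp, Ackr1 and Icam1 at most 1.23.

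**Figure D4:**
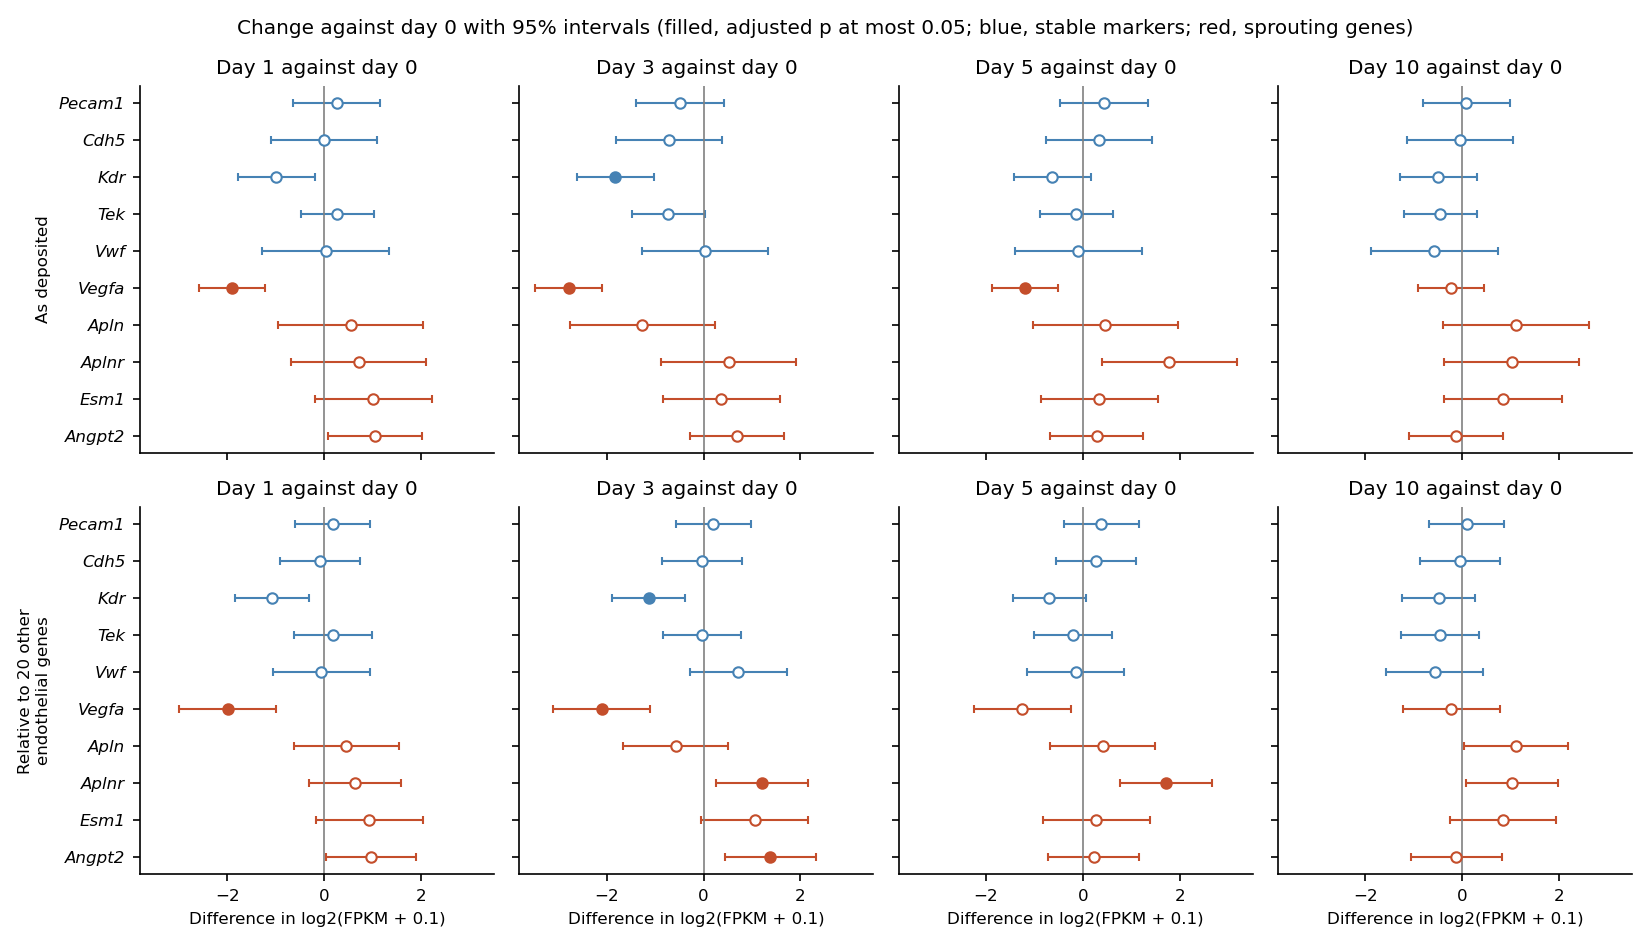
Difference from day 0 in log2(FPKM + 0.1) (x axis) with its 95% interval for each member on days 1, 3, 5 and 10, as deposited (upper row) and after subtracting the mean of 20 other endothelial genes in each library (lower row); filled points had an adjusted p of at most 0.05. On day 3 the filled points are Kdr and Vegfa above, at -1.82 and -2.79, and Kdr, Vegfa, Aplnr and Angpt2 below.

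Cells that accompany vessels gave mixed values, to be read against the 24.5% of all tested genes that rose and the 24.3% that fell on day 3, and the 3.53% and 12.9% that rose on days 1 and 5. Of 11 mural cell genes 5 rose on day 3, Acta2, Tagln, Pdgfrb, Cspg4 and Notch3, and 2 fell, Abcc9 and Myh11. Acta2, the smooth muscle actin gene, which contractile fibroblasts and new muscle cells also express, read 23.3 and 27.8 FPKM on day 0 and 289.1 and 377.9 on day 3. Pdgfrb rose by 1.29 ± 0.29, Cspg4 by 1.28 ± 0.28 and Notch3 by 1.02 ± 0.29. Abcc9, a pericyte potassium channel subunit, differed by -1.28 ± 0.32. Rgs5, a pericyte marker, differed by -0.65 ± 0.45 with an adjusted p of 0.262. In C2C12 myoblasts Acta2, Pdgfrb, Tagln and Notch3 read at least 7.83 FPKM in every library, and Cspg4 read 0.881 to 10.6 FPKM. Every other gene of the mural list, Abcc9, Myh11 and Rgs5 among them, read at most 1.1 FPKM there. The part of myoblasts in the mural values was not tested. Of the adhesion genes, Vcam1 and Icam1 rose on days 3 and 5 and Selp on day 1. Of 5 lymphatic genes 3 were tested, and Pdpn, which activated stromal cells also carry, rose on days 1, 3 and 5 while Lyve1 read at most 1.72 FPKM. In C2C12 myoblasts Pdpn read 110.3 to 220.8 FPKM. The platelet gene Pf4 rose on days 1, 3 and 5 and Ppbp on day 1, of 4 tested, while Gp1ba fell on day 3 (-1.83, limma adjusted p = 0.00315). Red blood cell genes, which tell of blood left in the tissue, gave 1 of 5 as lower on day 3, and their sum ran from 43.7 to 687.2 FPKM over the libraries. All 8 fibre genes fell on day 3, 6 of 6 myoblast genes and 7 of 7 macrophage genes rose, 1 of 5 neutrophil genes (Csf3r) rose on days 1, 3 and 5, and 3 of 6 fibroblast genes rose on day 3.

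The genes whose pattern over the 10 libraries was most like that of Cdh5 were Pecam1, Cav1, Kif26a, Efnb2 and Gimap4, with Pearson r from 0.946 to 0.979 among 12282 genes with a mean of at least 1 FPKM. For Esm1 they were Rpa3, Srsf10, Ctla2a, Trmt6 and Atg5, with r from 0.875 to 0.903, at an Esm1 depth of 6 to 39 reads. The points share their library, and libraries of a day share their day, so these values are a description.

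C2C12 cells, which hold no vessels, showed which members myoblasts express by themselves. Mettl3 read 4.68 to 5.65 FPKM in the CTRL libraries and 0.0805 to 0.331 in those labelled Cas9M3. Pecam1, Cdh5, Kdr, Tek, Vwf and Aplnr were at most at 0.114 FPKM in all 8 libraries, while Vegfa, Apln, Angpt2 and Esm1 passed the filter on low values, Esm1 through the Cas9M3-D3 libraries alone. Of the 20 other endothelial genes, 18 were below 1 FPKM in every C2C12 library, and S1pr1 (7.94 to 37.7 FPKM) and Ramp2 (0.22 to 7.75 FPKM) were expressed there too. Of the 4 members tested, 0 were called by limma in CTRL D3 against CTRL D0 (1.14% of 13824 genes), in Cas9M3 D0 against CTRL D0 (0% of genes) or in Cas9M3 D3 against CTRL D3 (1.98%), with 1, 0 and 2 members at an unadjusted p under 0.05. The 2 were Vegfa and Esm1, and Esm1 could only differ there, given how it entered the test. At that limit there were 2520, 1244 and 2429 of the 13824 genes in these comparisons, in the same order.

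Vegfa in C2C12 read 20.1 and 24.3 FPKM in CTRL-D0, 20.8 and 23.8 in Cas9M3-D0, 33.3 and 28.1 in CTRL-D3 and 19.0 and 14.9 in Cas9M3-D3. Both Cas9M3-D3 libraries lay below both of CTRL-D3, with a difference of -0.86 ± 0.21 and an adjusted p of 0.103. The effect of Cas9M3 on D3 differed from that on D0 by -0.86 ± 0.29, with an adjusted p of 0.485. Apln read 7.65 and 8.68 FPKM in CTRL-D0, 2.43 and 2.33 in CTRL-D3, 14.7 and 7.47 in Cas9M3-D0 and 3.87 and 4.06 in Cas9M3-D3. CTRL D3 lay below CTRL D0 by 1.73 on the log2 scale (SE 0.32, adjusted p = 0.0692), and this passed at 0.0303 without CTRL-D0 replicate 1 and at 0.0374 and 0.0355 without Cas9M3-D0 replicate 1 or 2. Angpt2 read 1.10 and 0.645 FPKM in CTRL-D0, 0.816 and 0.369 in Cas9M3-D0, 0.395 and 0.456 in CTRL-D3 and 0.719 and 0.793 in Cas9M3-D3. The D3 groups did not overlap, with a difference of 0.71 ± 0.45 and an adjusted p of 0.528.

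Esm1 was all but absent from control myoblasts and present in Cas9M3-D3. It had 0 and 0 reads in CTRL-D3, 1 and 0 in CTRL-D0, 3 and 15 in Cas9M3-D0 and 56 and 21 in Cas9M3-D3, or 0.958 and 0.682 FPKM in the last. The Cas9M3-D3 mean of 0.82 FPKM was 25.3 times a floor of 3 reads over the CTRL-D3 group. That ratio leaves out the counting error of Cas9M3-D3, so it is a description and no bound. Since Esm1 was tested only through the group where it is high, its fitted difference is not given. Muscle fibre genes moved in the same comparison, with a median of -4.46 over 7 tested and 1 of them lower by the test, and their part in the Esm1 values was not tested.

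**Figure D5:**
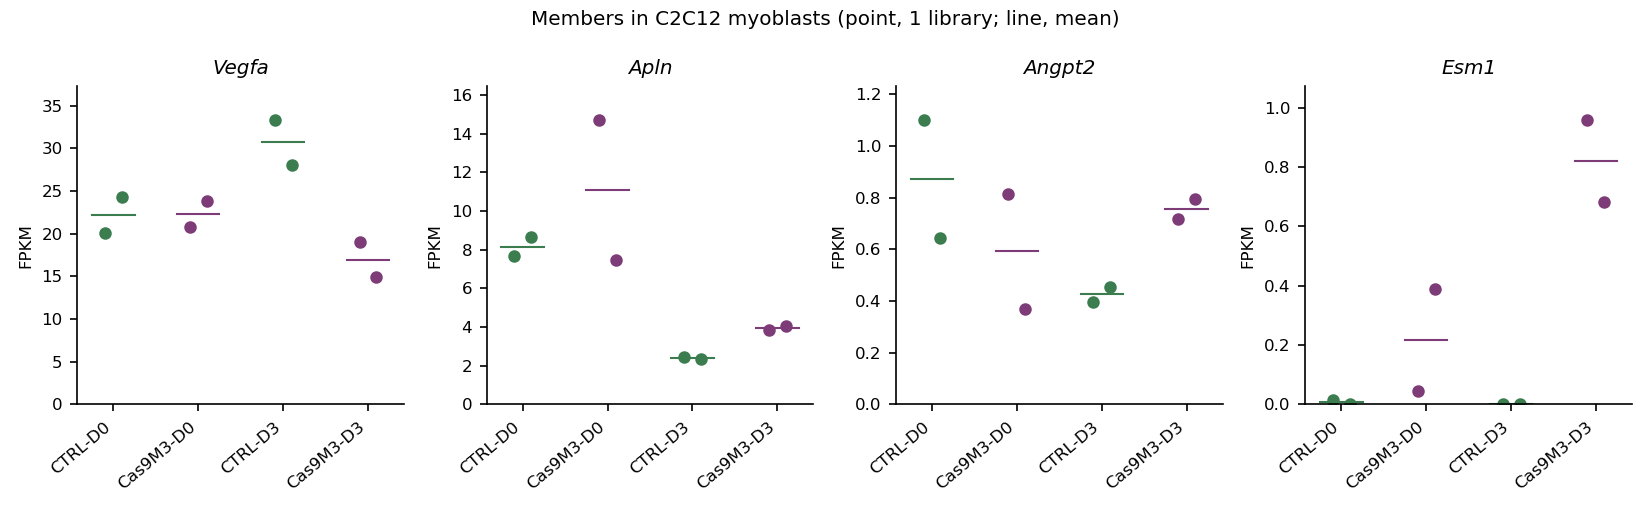
FPKM (y axis, from 0) of Vegfa, Apln, Angpt2 and Esm1 in C2C12 control cells (CTRL) and cells with the Mettl3 construct (Cas9M3) on D0 and D3 (x axis). Each point is a library and the line the mean. Vegfa is lowest in Cas9M3-D3, at 19.0 and 14.9 FPKM, Apln is lowest in CTRL-D3, and Esm1 reaches 0.958 and 0.682 FPKM in Cas9M3-D3 against 0 in CTRL-D3.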

How the data were processed

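RNA was measured by RNA-seq. Per the submitters' processing notes the build was GRCm38 (mm10). The deposited values are FPKM: the authors aligned reads with HISAT2, counted them per Ensembl gene with featureCounts and scaled them with the fpkm function of DESeq2, in versions not given in the sources used here. The regeneration and C2C12 tables were scaled separately and no value was compared across them. No column of another sample was present, and no exon of a member overlapped an exon of another gene on either strand. FPKM steps gave the depth (1 read on 1 kb equals 0.0494 to 0.0817 FPKM in muscle), and it entered no test.

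The members and gene lists were chosen with earlier results of these data known. Genes that reached 0.5 FPKM in 2 or more libraries entered the test on log2(FPKM + 0.1) with limma 3.58.1 (R 4.3.3, eBayes with trend, all groups of a table in 1 fit, Benjamini-Hochberg over all genes tested), and a gene was called where the adjusted p was 0.05 or less. A fold change on this scale understates the change of low genes. The procedure was tested on simulated data beforehand. In a further fit the mean of the stable endothelial list was subtracted in each library. Named genes are the members, the 3 most abundant tested genes of each list and the 5 genes most like Cdh5 or Esm1. Nos3, Clec14a, Ckm, Angpt1, Pgf, Slc2a1, Kdm3a, Ddit4, Cxcr4, Plvap, Nid2, Plaur, Dll4, Mcam, Selp, S1pr1, Ramp2, Tagln, Pdgfrb, Cspg4, Notch3 and Myh11 were added after their values were seen. Intervals are 95%. Values in C2C12 with the same replicate number deviated together (6 correlations of 0.278 to 0.680, all over 0.1). The labels state no pairing, and replicate 1 was the deeper library in each C2C12 group, so pairing and depth cannot be told apart. The main C2C12 fit took no account of the replicate number. In muscle the correlations ran from -0.019 to 0.211. Python 3.11.15, pandas 2.3.3, numpy 2.4.6 and matplotlib 3.10.9 were used. Alternatives were 2 other pseudocounts, no filter, median-ratio scaling, quantile normalization, a replicate block, a term for Xist, a fit of the compared days alone, and each library left out.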

Additional observations from a re-analysis of the deposited data

How the results depend on the processing

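The fall of Vegfa and Kdr on day 3 kept its direction and its call under all 18 alternatives. Counts of members moved as follows, and the causes were not tested. With a term for Xist, which only day 3 holds in both kinds of library, the counts were 0 on day 1, 0 on day 5 and 0 for day 5 against day 3, and relative to the endothelial list 0 on day 1, 1 on day 3 and 0 on day 5. With only the compared days in the fit they were 0 on day 1, 3 on day 3 (Tek with Kdr and Vegfa), 1 on day 5 (Kdr in place of Vegfa) and 3 for day 5 against day 3 (Kdr, Pecam1 and Vegfa). Without a filter they were 0 on day 5 and, on the relative scale, 0 on day 1 and 2 on day 3. A pseudocount of 1 gave 1 for day 3 against day 1, and 0.01 gave 0 on day 1 on the relative scale. Quantile normalization, which moved the median of all genes by -0.12 on day 3, gave 0 on day 5, 2 for day 3 against day 1 and 2 for day 5 against day 3. It turned the day 3 differences of Vwf and Esm1 to -0.28 and -0.23, and the term for Xist turned those of Cdh5 and Pecam1 on day 1 to -0.32 and -0.09. The replicate block gave 2 on day 5 (with Aplnr) and 1 for day 3 against day 1 (Tek), though in muscle the libraries share only a number. In C2C12, where values with the same number deviated together, the block changed no call.

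Leaving out 1 library gave 0 to 1 members on day 1, 2 to 3 on day 3, 0 to 2 on day 5, 0 on day 10, 0 to 2 for day 3 against day 1, 0 to 2 for day 5 against day 3 and 0 for day 10 against day 5. Relative to the endothelial list it gave 0 to 1, 1 to 4, 0 to 2 and 0 on days 1, 3, 5 and 10, and in C2C12 0 to 1, 0 and 0. Among differences whose sign turned when 1 library was left out, the ranges were -0.42 to 0.42 for Cdh5 and -0.06 to 0.57 for Pecam1 on day 1, -0.37 to 0.42 for Vwf, -0.25 to 1.28 for Aplnr and -0.18 to 0.92 for Esm1 on day 3, -0.03 to 0.70 for Cdh5 on day 5 and -0.61 to 0.16 for Vegfa on day 10, and on the relative scale -0.18 to 0.10 for Cdh5 on day 3 and -0.07 to 0.52 for Angpt2 on day 5.

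For the lists, alternatives added after the data were seen gave 5 stable endothelial genes lower on day 3 without a filter and 5 with the term for Xist, and 2 to 9 with 1 library left out. For the sprouting front on day 5 they gave 1 without a filter, 7 with the replicate block, 0 with the term for Xist and 0 to 5 with 1 library left out. On day 3, relative to the endothelial list, leaving out 1 library gave 3 to 7. With 2 libraries per group and 6 to 39 reads of Esm1 in muscle, smaller changes were not detectable at this depth.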
